A study of Mus musculus with 2 samples.

Results

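Amino acids, lactate and related small solutes enter and leave cells through solute carrier (Slc) proteins. The 70 genes described here are the members of the families Slc1, Slc3, Slc6, Slc7, Slc16, Slc36, Slc38 and Slc43 other than *Slc38a4* that had a probe set with a single gene symbol, out of 18194 such genes on the array. The rule that chose them used family names and no values, but it was set with earlier results of these data known. The 70 genes were read by 139 probe sets, and 36 genes had several. Each gene is represented by its brightest probe set, judged by the mean of both arrays.

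RNA from cultures of mouse embryonic stem cells (ESCs) was hybridised to Affymetrix GeneChip arrays to see how gene expression differs when G9a is lost. G9a, encoded by *Ehmt2*, is a histone methyltransferase that places the repressive mark H3K9me2 together with its partner GLP. There was 1 array of G9a-KO ESCs and 1 array of WT ESCs. The G9a-KO ESCs were a TT2 line with a mutant G9a allele and a second, floxed allele from which Cre removes the exons of the catalytic SET domain, and the WT ESCs were the TT2 line itself, from an F1 embryo of a C57BL/6 female and a CBA male. The labels of both samples give the same treatment text, 800 nM 4-hydroxytamoxifen for 48 h and then 48 h in its absence, so whether the WT ESCs received the drug is not known from them. The labels give serum replacement, a little fetal calf serum and LIF as the medium of both samples, while the methods give serum and LIF, with inactivated embryonic fibroblasts under the G9a-KO line. The deletion, the line's own history and the culture cannot be told apart in this design.

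With 1 array per group there was no replicate check. How far separate cultures of 1 genotype differ is thus not known, and having 1 array each limits the precision of every value. Every level is given on the log2 scale with the 75th percentile of its array set to 0, and every difference is G9a-KO minus WT on that scale. The median of all probe sets lay at -2.13 on the G9a-KO array and -2.24 on the WT array, and genes under it on both arrays are called dim. No detection call was used, so how much of a dim value is background is not known. The 18 probe sets for spiked-in RNA differed by -0.16 to 0.21 (SD 0.11). The brighter probe set of *Ehmt2* stood at 0.51 in G9a-KO ESCs and 2.05 in WT ESCs, 2.90-fold lower in G9a-KO ESCs, and its other probe set lay close to the median, at -2.07 in G9a-KO ESCs and -2.27 in WT ESCs. Whether either lies within the deleted exons was not examined.

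The labelled cell type was checked against markers. All 12 ESC markers lay above the median on both arrays, with a summed linear level of 264 times the 75th percentile in G9a-KO ESCs and 272 in WT ESCs. *Dppa5a* alone made up 96.4 of this in G9a-KO ESCs and 63.0 in WT ESCs. Without it, a choice made after its values were seen, the sums were 168 in G9a-KO ESCs and 209 in WT ESCs. Of these markers *Klf2* (-1.14), *Zfp42* (-0.79), *Utf1* (-0.61) and *Pou5f1* (-0.46) were over 1.3-fold lower in G9a-KO ESCs. *Tfcp2l1* (1.14) and *Dppa5a* (0.61) were over 1.3-fold higher, and the median difference of the 12 was -0.20. All 20 markers of primitive endoderm, the extraembryonic lineage that ESC cultures can form, were over 1.3-fold higher in G9a-KO ESCs and 19 of them over 2-fold, with a median difference of 3.13. Their summed level was 157 in G9a-KO ESCs and 14.3 in WT ESCs, where 8 of them, among them *Gata4* and *Sox7*, lay under the median. The 15 fibroblast markers summed to 17.3 in G9a-KO ESCs and 17.4 in WT ESCs, of which *Vim* alone made up 14.3 in G9a-KO ESCs and 14.8 in WT ESCs. Of the 15, 10 were dim, among them *Col1a1*, *Col3a1* and *Thy1*, 3 were over 1.3-fold higher in G9a-KO ESCs (*Col1a2*, 0.83; *Lum*, 0.98, dim; *Twist1*, 0.48) and 1 was lower (*Fap*, -0.42, dim). The part of these marker differences in the transporter differences below was not tested. In RNA from a whole culture, more cells of a type and more RNA per cell cannot be told apart.

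Slc proteins differ in what they carry and how. Slc1, Slc6 and Slc38 proteins use the sodium gradient to concentrate their substrates, most Slc7 proteins exchange or pass amino acids down their gradient, several as light chains bound by a disulfide bond to a heavy chain of the Slc3 family, and the best known Slc16 proteins carry lactate and pyruvate with protons. The best known Slc36 proteins move small amino acids with protons, and the best known Slc43 proteins facilitate the passage of large neutral amino acids. Mouse ESCs are known for a strong demand for threonine and glutamine. Family names do not fix the cargo, and members such as *Slc6a2* (noradrenaline), *Slc6a8* (creatine), *Slc6a6* (taurine) and *Slc43a3* (purine nucleobases) carry neither amino acids of proteins nor monocarboxylates.

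Several genes of amino acid uptake are known to be induced through a promoter element, the amino acid response element, that is bound by ATF4 with C/EBP proteins. Its core, taken as TGATGNAA, was therefore searched on both strands of RefSeq promoter sequences (GRCm38.p6), which run from 250 bases before to 50 bases after each start. Sequence outside this window was not searched, so a gene without the core here may hold it elsewhere. Of the 70 genes, 49 had such a sequence, in 68 promoters, and 4 of them held the core (8.16%), against 1219 of 27025 genes in all (4.51%). The match on the other strand reads TTNCATCA in the lines below, which are in gene orientation with the core in capitals. The promoter of *Slc1a4*, a neutral amino acid exchanger and the only one of the 4 genes whose transcript differed over 1.3-fold, is shown whole, and the others are shown around the core.
Slc1a4, chr11:20332664-20332963, minus strand: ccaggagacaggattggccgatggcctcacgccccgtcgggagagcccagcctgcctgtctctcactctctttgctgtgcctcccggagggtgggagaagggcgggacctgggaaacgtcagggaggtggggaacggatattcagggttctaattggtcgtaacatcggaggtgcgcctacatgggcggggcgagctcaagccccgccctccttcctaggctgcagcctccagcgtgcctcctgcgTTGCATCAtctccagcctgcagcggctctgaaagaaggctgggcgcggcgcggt
Slc7a7, chr14:54417895-54418194, minus strand, first core: cgcttgggctTGATGAAAggttcactgg
Slc7a7, same promoter, second core: acctagaagcTGATGCAAcagcttcccc
Slc7a11, chr3:50443564-50443863, minus strand, first core: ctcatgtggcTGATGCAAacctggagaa
Slc7a11, same promoter, second core: cctggagaatTTGCATCAtcatgcagcc
Slc6a21, chr7:45282623-45282922, plus strand: gaggtgagaaTTACATCAagtgggcctc
The core began 4 bases before the start in *Slc1a4*, 141 bases and 1 base before it in *Slc7a7*, 66 and 47 bases before it in *Slc7a11* and 28 bases before it in *Slc6a21*. A second *Slc7a7* promoter overlaps the first, and its core, 243 bases before its own start, is the same site as the second core above. On the arrays *Slc1a4* differed by 1.48 and *Slc7a7* by -0.28, while *Slc7a11* (0.35) and *Slc6a21* (0.089) were dim. Only *Slc1a4* was past 1.3-fold, so no direction can be read across the 4 genes.

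Over all 70 genes, more were higher than lower in G9a-KO ESCs. At 1.3-fold, 18 genes were higher (25.7%) and 8 lower (11.4%), against 17.4% of all genes higher and 17.2% lower. At 2-fold, 7 were higher (10.0%) and 2 lower (2.86%), against 4.61% and 3.76% of all genes. The median difference was 0.16, against 0.036 over all genes, and 44 of the 70 genes stayed within 1.3-fold. The 7 genes over 2-fold higher were *Slc6a14*, *Slc7a1*, *Slc1a4*, *Slc7a9*, *Slc6a8*, *Slc1a1* and *Slc38a9*, and the 2 genes over 2-fold lower were *Slc38a1* and *Slc16a13*. The split at 2-fold depended on the scaling of the arrays: with each array centred on its median it was 6 higher and 5 lower, with quantile normalization 7 and 5, and without any shift 7 and 4. Under median centring *Slc6a15*, *Slc7a3* and *Slc36a4* came past 2-fold lower and *Slc38a9* fell just short of 2-fold higher, and at 1.3-fold there were 14 genes higher and 8 lower, against 13.0% and 22.3% of all genes.

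Of the 44 genes within 1.3-fold 24 were dim, so the genes were also read by level. On at least 1 array 45 of the 70 genes lay above the median, 36 of them on both arrays, 6 in G9a-KO ESCs alone and 3 in WT ESCs alone. Of the 45, 18 were over 1.3-fold higher (40.0%) and 7 lower (15.6%), against 21.0% and 22.8% of the 12600 genes of the array that met the same condition, and at 2-fold the shares were 15.6% higher and 4.44% lower, against 6.25% and 5.29%. A gene that lies above the median on 1 array alone had to differ, and this holds for 5 of the 18 (*Slc1a1*, *Slc6a14*, *Slc7a9*, *Slc16a5* and *Slc16a9*) and 3 of the 7 (*Slc16a13*, *Slc16a14* and *Slc36a4*), so nothing is read from these shares. Among the 36 genes above the median on both arrays, 13 were over 1.3-fold higher (36.1%) and 4 lower (11.1%), against 19.6% and 22.0% of 11566 genes, and 4 were over 2-fold higher (11.1%) and 1 lower (2.78%), against 4.91% and 4.37%. Among the 41 genes whose mean over both arrays lay above the middle of the medians, 16 were over 1.3-fold higher (39.0%) and 5 lower (12.2%), against 20.5% and 22.5% of 12154 genes, and 7 were over 2-fold higher (17.1%) and 2 lower (4.88%), against 5.84% and 5.05%. These too include genes above the median on 1 array alone, *Slc1a1*, *Slc6a14* and *Slc7a9* in G9a-KO ESCs and *Slc16a13* in WT ESCs. Nothing is read from the shares by the mean either. The 292 other Slc genes, with no condition on level, included 21.6% over 1.3-fold higher and 13.7% lower, with a median difference of 0.084. Of them, 180 lay above the median on both arrays, with 46 over 1.3-fold higher (25.6%) and 27 lower. By the mean of both arrays, 26.9% of 193 other Slc genes were over 1.3-fold higher and 16.1% lower. More genes higher than lower was thus also seen among the other Slc genes. These shares are descriptions of 2 arrays and not tests.

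**Figure D1:**
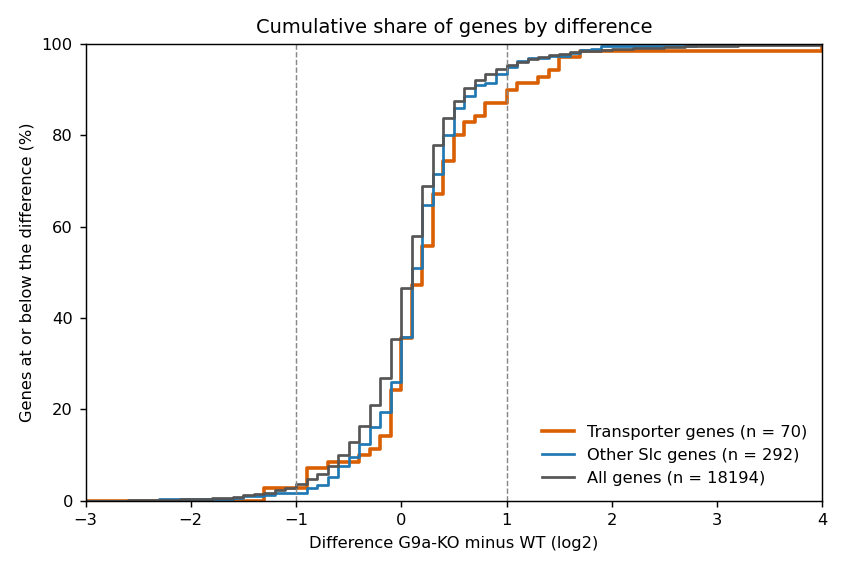
Cumulative share of genes (y axis, percent) at or below a given log2 difference G9a-KO minus WT (x axis), for the 70 transporter genes, the 292 other Slc genes and all 18194 genes, with dashed lines at 2-fold. The transporter curve runs lowest from about -0.5 to 1.6 and again from about 1.9 to 3.9, with a median of 0.16 against 0.084 and 0.036, and its last step is *Slc6a14* at 3.95.

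The families did not move as 1 group. The median difference was highest in Slc43 (0.51, 3 genes), Slc3 (0.46, 2 genes) and Slc1 (0.35, 7 genes), and none of their 12 genes was over 1.3-fold lower. It was 0.13 over the 18 Slc6 genes, 0.11 over the 8 Slc38 genes, 0.10 over the 13 Slc16 genes and 0.096 over the 15 Slc7 genes, families in which genes past 1.3-fold were found in both directions, and under median centring the medians of Slc7 (-0.0057) and Slc16 (-0.0012) turned slightly below 0, as did that of Slc7 under quantile normalization (-0.0047). Slc36 had a median under 0 under every scaling tried, at -0.22 over 4 genes as scaled here. The genes that were not dim are described below family by family.

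**Figure D2:**
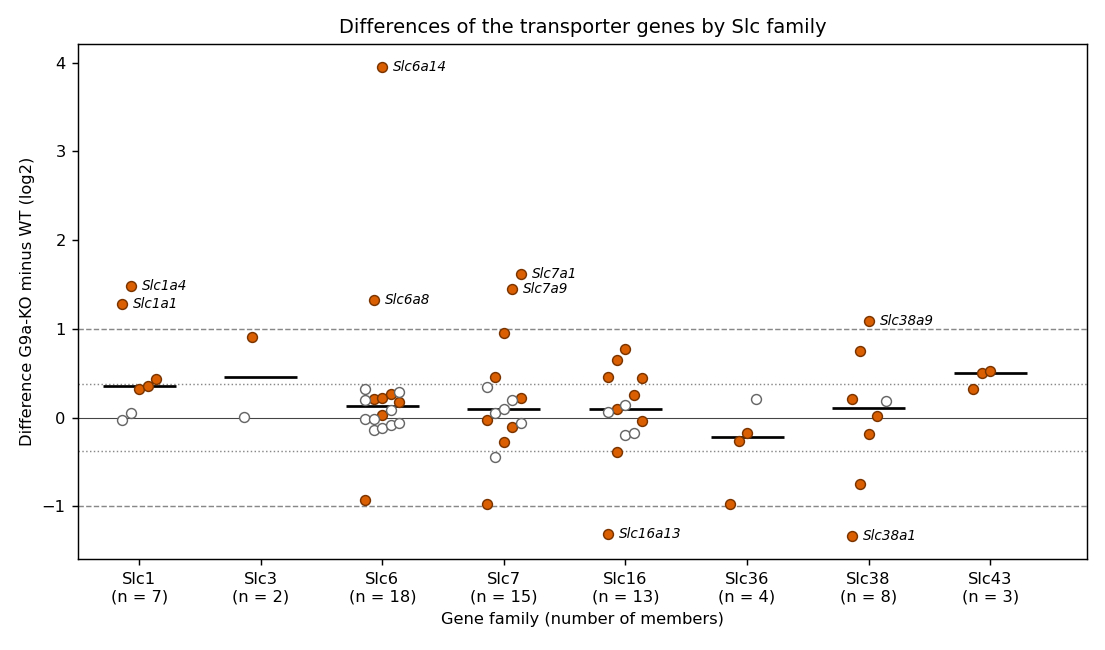
Log2 difference G9a-KO minus WT (y axis) of each of the 70 genes by family (x axis), filled where the gene lay above the median on at least 1 array and open where it was dim. Bars mark family medians, dotted lines 1.3-fold and dashed lines 2-fold, and the 9 genes past 2-fold are named, with *Slc6a14* standing far above the rest at 3.95.

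Among the heteromeric transporters, the widely used heavy chain and its main light chain were both higher in G9a-KO ESCs. *Slc3a2*, the heavy chain CD98 that carries several Slc7 light chains to the cell surface, stood at 4.25 in G9a-KO ESCs and 3.35 in WT ESCs, a difference of 0.91 (1.87-fold). *Slc7a5* (LAT1), which exchanges large neutral amino acids such as leucine, stood at 3.80 in G9a-KO ESCs and 2.84 in WT ESCs, a difference of 0.96 (1.94-fold). Both thus stayed just short of 2-fold, and each was read by 1 probe set. The light chains for cationic and neutral amino acid exchange did not share that difference: *Slc7a6* (y+LAT2) stood at 1.27 in G9a-KO ESCs and 1.38 in WT ESCs, and *Slc7a7* (y+LAT1) at 0.28 in G9a-KO ESCs and 0.56 in WT ESCs. For *Slc7a6* a second probe set differed by 0.56, opposite in sign to the -0.11 of the first. *Slc7a9*, a light chain that takes up cystine and cationic amino acids in kidney, stood at -1.18 in G9a-KO ESCs and under the median, at -2.64, in WT ESCs, 2.74-fold higher, while its heavy chain *Slc3a1* was dim on both arrays. The remaining light chains *Slc7a8* (LAT2), *Slc7a10* and *Slc7a11*, the cystine and glutamate exchanger xCT, were dim, and *Slc7a8* was the only one of all 25 dim genes past 1.3-fold, with a difference of -0.44. *Slc7a13*, a light chain for aspartate, glutamate and cystine, stood close to the median, at -2.03 in G9a-KO ESCs and -2.25 in WT ESCs.

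The cationic amino acid transporters of Slc7, which take up arginine and lysine without a heavy chain, went in opposite directions. *Slc7a1* (CAT1) stood at 2.49 in G9a-KO ESCs and 0.87 in WT ESCs, a difference of 1.62 (3.07-fold), and its second bright probe set differed by 2.10. *Slc7a3* (CAT3) stood at 1.70 in G9a-KO ESCs and 2.67 in WT ESCs, a difference of -0.98 (1.97-fold lower), by 1 probe set. *Slc7a2* (CAT2) was higher by a smaller margin, at -0.10 in G9a-KO ESCs and -0.55 in WT ESCs (1.37-fold), and among its 3 other probe sets, all dim, differences of 1.04 and 0.62 were the largest. *Slc7a4*, whose transport activity is uncertain, stood at -0.65 in G9a-KO ESCs and -0.63 in WT ESCs.

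Among the Slc1 carriers of acidic and small neutral amino acids, all 5 genes that were not dim were higher in G9a-KO ESCs under every scaling tried, 3 of them past 1.3-fold (2 under median centring). Of the 5, *Slc1a1* was not dim by its G9a-KO level alone. *Slc1a4* (ASCT1), an exchanger of alanine, serine, cysteine and threonine, stood at 0.97 in G9a-KO ESCs and -0.51 in WT ESCs, a difference of 1.48 (2.79-fold), and its other probe sets differed by 2.13 and 1.82. *Slc1a1*, a glutamate carrier that also takes up cysteine, stood at -1.51 in G9a-KO ESCs and under the median, at -2.79, in WT ESCs, a difference of 1.28 (2.42-fold). Its other probe sets differed by 3.11 and 1.41, so the size, though not the direction, depended on the probe set. *Slc1a3* (GLAST), the glutamate carrier known from astrocytes, stood at -0.38 in G9a-KO ESCs and -0.81 in WT ESCs, a difference of 0.44 (1.35-fold), with 2.04 and 1.45 by its other bright probe sets. For these 3 genes every bright probe set was past 1.3-fold in the same direction. Those of *Slc1a1*, and all but the brightest of *Slc1a3*, lay under the median in WT ESCs, so as bright probe sets they had to be higher in G9a-KO ESCs. The dim probe sets of *Slc1a3* differed by 0.63, -0.020 and -0.0068. *Slc1a5* (ASCT2), a glutamine exchanger, stood at -0.92 in G9a-KO ESCs and -1.24 in WT ESCs, and *Slc1a7*, a glutamate carrier of the retina, at -1.46 in G9a-KO ESCs and -1.81 in WT ESCs, and neither reached 1.3-fold.

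*Slc6a14* had the largest difference of the 70 genes. It encodes ATB0,+, a sodium- and chloride-driven carrier that takes up neutral and cationic amino acids alike. Its level was 0.82 in G9a-KO ESCs and -3.12 in WT ESCs, a difference of 3.95 (15.4-fold). Its second probe set stood at -0.45 in G9a-KO ESCs and -3.29 in WT ESCs, a difference of 2.84, so both probe sets were above the median in G9a-KO ESCs and well under it in WT ESCs. Since the WT values lie under the median, the fold rests on a value whose background is not known. *Slc6a8*, the creatine transporter, stood at 1.83 in G9a-KO ESCs and 0.50 in WT ESCs, a difference of 1.33 (2.51-fold), with 1.68 by its second probe set. *Slc6a15*, a carrier of branched-chain amino acids and proline known from neurons, was the only Slc6 gene past 1.3-fold in the other direction, at -2.12 in G9a-KO ESCs, close to the median, and -1.18 in WT ESCs (1.91-fold lower). The bright taurine transporter *Slc6a6* hardly differed, at 3.17 in G9a-KO ESCs and 2.94 in WT ESCs. Within 1.3-fold were also *Slc6a9* (GLYT1, glycine; -0.54 in G9a-KO ESCs and -0.72 in WT ESCs), *Slc6a17* (a carrier of synaptic vesicles; -0.85 in G9a-KO ESCs and -1.06 in WT ESCs), *Slc6a2* (-1.13 in G9a-KO ESCs and -1.16 in WT ESCs) and *Slc6a7* (proline; -1.64 in G9a-KO ESCs and -1.91 in WT ESCs).

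The sodium-coupled neutral amino acid transporters of Slc38 included 3 genes whose probe sets differed in both directions. *Slc38a1* (SNAT1), which takes up glutamine and other neutral amino acids, stood at 0.89 in G9a-KO ESCs and 2.22 in WT ESCs by its brightest probe set, a difference of -1.33 (2.52-fold lower). Its second probe set stood at 0.69 in G9a-KO ESCs and 0.24 in WT ESCs, a difference of 0.45 in the opposite direction. *Slc38a2* (SNAT2), a system A transporter induced by amino acid lack, stood at 3.44 in G9a-KO ESCs and 4.18 in WT ESCs, a difference of -0.75 (1.68-fold lower), while its other probe sets differed by 0.45 and 0.23. No single direction can therefore be given for either gene. *Slc38a9*, which senses arginine at the lysosome for mTORC1, stood at -0.04 in G9a-KO ESCs and -1.13 in WT ESCs, a difference of 1.09 (2.13-fold). Its other probe sets above the median ran from -0.53 to 0.94, 2 of them under 0, so this direction too rests on the probe set chosen. *Slc38a10* had the same direction throughout, at 2.87 in G9a-KO ESCs and 2.12 in WT ESCs (1.68-fold higher), with all 7 probe sets between 0.095 and 0.75. *Slc38a3* (SNAT3, glutamine; -1.07 in G9a-KO ESCs and -0.88 in WT ESCs), *Slc38a6* (-0.63 in G9a-KO ESCs and -0.85 in WT ESCs) and *Slc38a7* (lysosomal glutamine export; -0.41 in G9a-KO ESCs and -0.43 in WT ESCs) stayed within 1.3-fold.

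Agreement of the probe sets of a gene was described too, a measure that the choice of the brightest one did not use. The condition on level limits it, since a probe set above the median in G9a-KO ESCs alone had to be higher there. That holds for every probe set of *Slc1a1* and *Slc6a14* and, among those of *Slc1a3* above the median, for all but the brightest. Of the 45 genes, 27 had 1 probe set above the median and 18 had several. Probe sets in both directions were found in 6 of the 18 (33.3%), namely *Slc38a1*, *Slc38a2*, *Slc38a9*, *Slc43a2*, *Slc6a17* and *Slc7a6*, against 1846 of 5371 genes in all (34.4%). In 6 others, *Slc1a1*, *Slc1a3*, *Slc1a4*, *Slc6a8*, *Slc6a14* and *Slc7a1*, every such probe set was past 1.3-fold, each time higher in G9a-KO ESCs (33.3%), against 657 of the 5371 genes (12.2%), and all such probe sets were over 1.3-fold lower in 0 of the 18, against 508 genes (9.46%). Since the condition on level fixed part of this agreement, nothing is read from the shares past 1.3-fold. The share of transporter genes whose probe sets disagreed was close to that of genes in general.

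**Figure D3:**
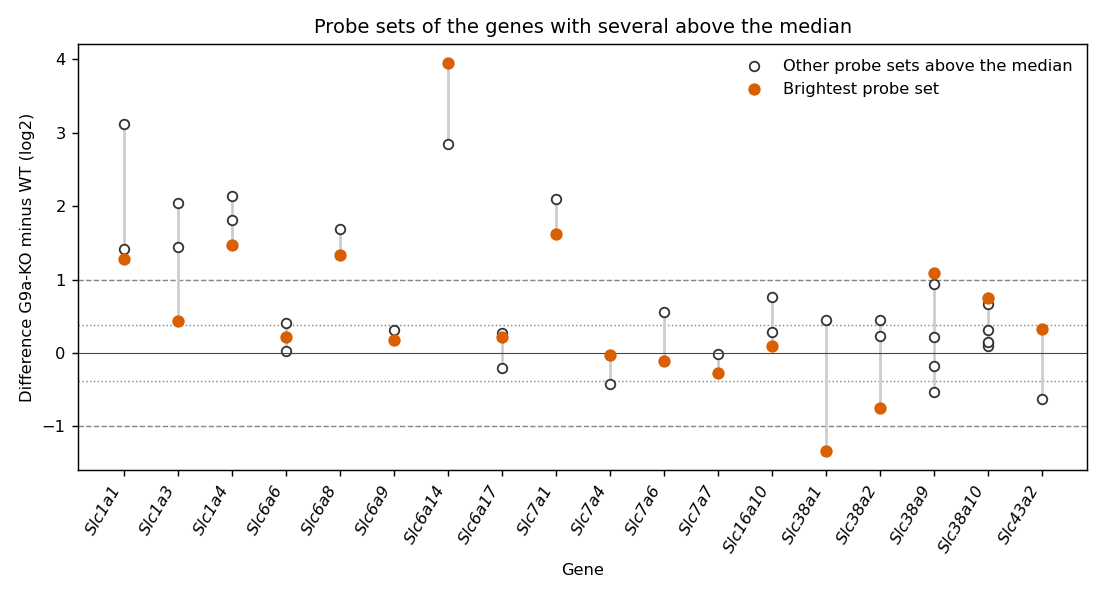
Log2 difference G9a-KO minus WT (y axis) of every probe set above the median on at least 1 array, for the 18 genes with several (x axis), with the brightest probe set filled and dotted and dashed lines at 1.3-fold and 2-fold. In *Slc6a14*, *Slc1a4*, *Slc7a1*, *Slc1a1* and *Slc6a8* all points lie above the 2-fold line, while *Slc38a1* spans -1.33 to 0.45 and *Slc38a9* -0.53 to 1.09.

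The Slc16 family, named for its monocarboxylate carriers, held genes past 1.3-fold in both directions. *Slc16a1* (MCT1), which carries lactate and pyruvate with protons, stood at 4.33 in G9a-KO ESCs and 3.67 in WT ESCs, a difference of 0.65 (1.57-fold). *Slc16a3* (MCT4), the lactate exporter of glycolytic cells, stood at -0.21 in G9a-KO ESCs and -0.17 in WT ESCs and so did not share it. *Slc16a6* was 1.37-fold higher, at 0.46 in G9a-KO ESCs and 0.01 in WT ESCs. *Slc16a5* (-1.83 in G9a-KO ESCs and -2.61 in WT ESCs) and *Slc16a9* (-2.04 in G9a-KO ESCs and -2.50 in WT ESCs), which carries carnitine in human cells, were 1.71-fold and 1.38-fold higher with WT levels under the median. A second, dim probe set of *Slc16a5* differed the other way, by -0.33, while the dim probe sets of *Slc16a9* differed by 0.11 and 0.45. The 2 genes past 1.3-fold in the other direction lay under the median in G9a-KO ESCs: *Slc16a13* stood at -2.42 in G9a-KO ESCs and -1.11 in WT ESCs, a difference of -1.31 (2.49-fold lower) by 1 probe set, and *Slc16a14* at -2.49 in G9a-KO ESCs and -2.10 in WT ESCs (1.31-fold lower). For *Slc16a14* a second, dim probe set differed by 0.14. *Slc16a8* (MCT3 of the retinal pigment epithelium; -1.53 in G9a-KO ESCs and -1.78 in WT ESCs) and *Slc16a10* (TAT1, aromatic amino acids; -1.06 in G9a-KO ESCs and -1.17 in WT ESCs) stayed within 1.3-fold, although a second *Slc16a10* probe set differed by 0.76.

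The Slc43 and Slc36 families held few genes. *Slc43a1* (LAT3), a facilitator of large neutral amino acids, stood at 0.36 in G9a-KO ESCs and -0.17 in WT ESCs (1.44-fold higher), and *Slc43a3* at -0.93 in G9a-KO ESCs and -1.44 in WT ESCs (1.42-fold higher). *Slc43a2* (LAT4) stood at -0.14 in G9a-KO ESCs and -0.46 in WT ESCs by its brightest probe set, while a second one differed by -0.63. Every Slc36 gene that was not dim was lower in G9a-KO ESCs under every scaling tried, but only *Slc36a4* passed 1.3-fold, at -2.74 in G9a-KO ESCs, under the median, and -1.77 in WT ESCs (1.97-fold lower). *Slc36a4* was not dim by its WT level alone, which leaves little room for the other direction. The dim *Slc36a3* was higher, by 0.21, so no common direction is read for the family. *Slc36a1* (PAT1, found in lysosomes) stood at -0.15 in G9a-KO ESCs and 0.02 in WT ESCs, and *Slc36a2* (PAT2) at -2.09 in G9a-KO ESCs and -1.83 in WT ESCs.

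**Figure D4:**
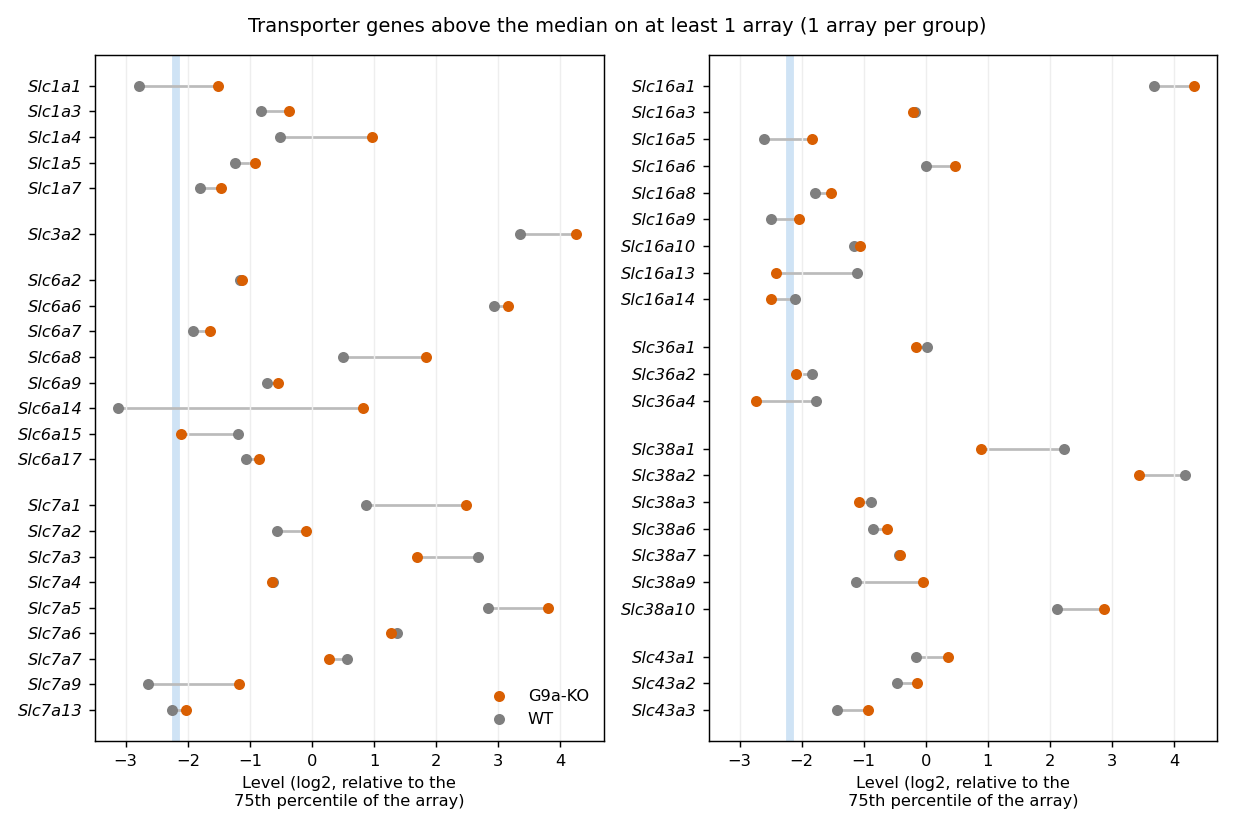
Levels (x axis, log2, 75th percentile of each array at 0) of the 45 genes above the median on at least 1 array (y axis, grouped by family), with the G9a-KO array in orange and the WT array in grey joined by a line, and a band between the medians of all probe sets, -2.13 for G9a-KO and -2.24 for WT. The longest line is that of *Slc6a14*, at 0.82 in G9a-KO ESCs and under the band, at -3.12, in WT ESCs, and the G9a-KO point lies to the right in 31 of the 45 genes.

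The 25 dim genes ranged from -0.44 to 0.35. Besides those named above they were the glutamate carriers *Slc1a2* and *Slc1a6*, the monoamine carriers *Slc6a3* and *Slc6a4*, the glycine carrier *Slc6a5*, the GABA and betaine carriers *Slc6a11*, *Slc6a12* and *Slc6a13*, the neutral amino acid carriers *Slc6a18* and *Slc6a19* of kidney and gut, *Slc6a16*, *Slc7a12*, *Slc7a14*, *Slc7a15*, *Slc16a4*, *Slc16a7* (MCT2), *Slc16a11*, *Slc16a12*, *Slc36a3* and *Slc38a5* (SNAT5). *Slc1a6* and *Slc7a12* had identical deposited values on both arrays, which the shift sets 0.056 apart.

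Genes that work with these transporters were described in the same way, but by their brightest probe set alone. Their other probe sets were not compared. For *Bsg*, *Asns*, *Aldh18a1*, *Mpc1* and *Flcn* the ID of that probe set ends in _a_at or _x_at, and such probe sets can bind several transcripts. Of 6 listed partners 4 were measured, and all 4 were over 1.3-fold higher. *Bsg* (basigin), the chaperone that brings MCT1 and MCT4 to the surface, stood at 4.12 in G9a-KO ESCs and 3.27 in WT ESCs (1.80-fold higher). *Emb* (embigin), a second such chaperone, stood at 2.71 in G9a-KO ESCs and 1.62 in WT ESCs (2.14-fold higher). Both chaperones thus differed in the direction of *Slc16a1*, while *Cltrn* and *Cd44* were dim.

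Of 37 listed genes of amino acid use, 30 were measured, with 11 over 1.3-fold higher, 4 lower and a median difference of 0.19. *Asns*, asparagine synthetase, stood at 5.14 in G9a-KO ESCs and 3.31 in WT ESCs (3.54-fold higher). *Gldc*, of the glycine cleavage system, stood at 3.52 in G9a-KO ESCs and 2.29 in WT ESCs (2.35-fold higher). *Aldh18a1*, which starts proline synthesis, stood at 2.97 in G9a-KO ESCs and 1.75 in WT ESCs (2.33-fold higher). *Prodh*, which starts proline breakdown, was the gene furthest the other way, at -1.99 in G9a-KO ESCs and -0.14 in WT ESCs (3.62-fold lower). The entry enzymes of proline synthesis and breakdown thus differed in opposite directions, each by its brightest probe set alone.

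Of 16 genes of lactate and pyruvate metabolism, 15 were measured, with 7 over 1.3-fold higher, 1 lower and a median difference of 0.36. *Pdk4*, a kinase that turns off pyruvate dehydrogenase, stood at 2.15 in G9a-KO ESCs and -1.92 in WT ESCs (16.8-fold higher). *Mpc1*, a subunit of the mitochondrial pyruvate carrier, stood at 3.18 in G9a-KO ESCs and 1.96 in WT ESCs (2.32-fold higher). The lactate dehydrogenases *Ldhc*, known from testis, and *Ldhd*, for D-lactate, differed by 0.97 and 0.54. Amino acid sensing for mTORC1, the kinase complex that matches growth to amino acid supply, had more genes lower than higher: of 39 listed genes 35 were measured, all above the median on both arrays, and 4 were over 1.3-fold higher (11.4%) and 8 lower (22.9%), none past 2-fold, with a median of -0.18. The share lower is close to that of all genes above the median on both arrays (22.0%), while the share higher is under theirs (19.6%). *Tsc1* (-0.97) and *Tbc1d7* (-0.89), of the TSC complex that holds mTORC1 off, and *Flcn* (-0.84), which acts on the Rag GTPases at the lysosome, were lower in G9a-KO ESCs, and *Deptor* (0.89), an mTOR inhibitor, was higher. Of the genes of amino acid use, 28 lay above the median on both arrays, as did 14 of those of lactate and pyruvate metabolism. Their shares, 36.7% higher and 13.3% lower for amino acid use and 46.7% and 6.67% for lactate and pyruvate, stand beside the same 19.6% and 22.0%. The counts of the remaining lists stand beside the 17.4% and 17.2% of all genes past 1.3-fold given above.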

How the data were processed

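The deposited values are log2 signals per probe set that the authors computed in R 3.2.1 by RMA, as the submitters' processing notes list. RMA corrects background, brings both arrays to 1 distribution and summarises the probes of a probe set, so a difference in total RNA per cell cannot be seen. The values ran from 1.82 to 14.3. Probe sets were named from the platform annotation: of 45101, 34958 had 1 gene symbol, 932 several and 9211 none here, and the first kind gave 18194 genes. All 70 transporter genes matched the RefSeq table of GRCm38.p6 by gene ID. Some genes of these families are not reported here.

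As in the methods of the study, the 75th percentile of each array (7.31 for G9a-KO and 7.37 for WT) was subtracted. The fold of 1.3 is the one used there for this pair and that of 2 the one used for other arrays. The rule there, in which any probe of a gene past the fold is enough, was run as an alternative to the brightest probe set. Differences were taken with Python 3.11.15, numpy 2.4.6 and pandas 2.3.3, statsmodels 0.14.6 was used for the lowess correction, and the steps were tested on simulated data. No p-value was computed, since each group has 1 array.

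Every transporter gene that was not dim is given with both levels. In related lists, up to 4 genes above the array median with the largest absolute differences are named. Dim genes and other list or marker genes named besides were chosen after their values were seen. The genes and lists were chosen with earlier results of these data known. Alternatives were no shift, median centring, quantile normalization, a lowess correction (span 0.3), other choices among the probe sets of a gene, and the level filter. Filters on the mean of both arrays and on both arrays were chosen after seeing the data. Comparison of protein sequences was not done here.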

Additional observations from a re-analysis of the deposited data

How the results depend on the processing

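The number of transporter genes over 2-fold lower, 2 as reported, was 4 without a shift, 5 with median centring, 5 with quantile normalization, 3 after lowess correction, and 1 with all probe sets of a gene averaged or without probe sets whose IDs end in _s_at, _x_at or _a_at, which can bind several transcripts. Several genes lie just short of 2-fold lower, so small shifts of scale move this count: the shift by the 75th percentile adds 0.056 to every difference, and median centring takes 0.10 from it, which puts the median of all genes at -0.066. Under median centring 3.85% of all genes were over 2-fold higher and 4.85% lower. The share of the genes past 2-fold that were higher was 77.8% as reported, 63.6% without a shift, 54.5% with median centring, 58.3% with quantile normalization and 70.0% after lowess correction. Restricting to genes above the median on both arrays, chosen after seeing the data, left 4 over 1.3-fold lower, 4 over 2-fold higher and 1 over 2-fold lower, and restricting by the mean level, chosen likewise, left 5 over 1.3-fold lower. Over the other alternatives, 14 to 23 genes were over 1.3-fold higher, 6 to 11 over 1.3-fold lower and 6 to 9 over 2-fold higher, and the median difference stayed above 0, at 0.054 to 0.25. *Slc38a1* turned to 0.45 when _s_at, _x_at and _a_at probe sets were left out, because its remaining probe set differs upward. The mean over probe sets moved 24 of 70 differences by more than the SD of the spiked-in controls, the probe set with the largest difference 14 of 70, quantile normalization 3 of 70, and leaving out _s_at, _x_at and _a_at probe sets 5 of 67. No paired analysis was possible because each group has 1 array. Dim values, in WT ESCs those of *Slc6a14*, *Slc1a1* and *Slc7a9*, limit how exactly a fold can be read.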
